A study of Arabidopsis thaliana with 28 samples.

Results

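The 208 probe sets described here rose stepwise in developing leaves of Arabidopsis thaliana between 24, 48 and 96 h of treatment. They are the probe sets whose mean log2(signal + 10) was lower at 24 h than after 48 h and lower at 48 h than after 96 h, with 96 h above 24 h by at least 0.7 on that scale and a mean signal of at least 50 at 96 h. Of 22746 probe sets that are not controls, 220 met these values, and 12 of them, listed by gene name, were left out. Among the 208 members, 90 have 1 named gene, 2 match several genes and 116 have no gene name here. All plants were Col-0 (stock N1092), grown on Humax compost under 10 h of light in a controlled room at 20 °C and 50% humidity, and the series title gives the treatment as low light at ambient CO2. Developing leaves were leaf insertions 19 to 21, taken after 2, 4, 12, 24, 48 and 96 h with 4 replicates at each time. Mature leaves were taken after 24 h with 2 replicates.

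Young leaves begin life as importers of sugar and become exporters as they expand, a change that involves sucrose synthesis, sucrose efflux toward the phloem and remodelling of the cell wall. Plant cells read their surroundings through receptor-like kinases and intracellular TIR-type immune receptors at the start of signalling, and calcium-binding proteins with EF-hand domains take such signals further. Many genes of these classes also follow the time of day and leaf age as well as light. No untreated array is used here, and the labels give no time of day for sampling. Each comparison is therefore between times or leaf ages, and treatment and growth cannot be told apart. The times that chose the members lie whole days apart, so they share an hour of day if treatment always began at the same hour. The times compared in the tests do not lie whole days apart, and there time of day cannot be told apart from treatment and growth either.

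The signal is the authors' MAS5 value, a linear intensity scaled on every array to a trimmed mean of 100, and array medians ran from 40.8 to 48.1. Markers were checked against the labelled tissue. RCA, the activase of Rubisco, had mean signals of 2594 to 4778 in all 7 groups, and the meristem gene CLV3 stayed at 2.29 to 3.13. The sum of the 3 mesophyll markers named here (RCA, LHCB4.2 and PSAN, of 7 chosen) ran from 5745 to 8018 at 2 h, 7461 to 8991 after 4 h and 4281 to 4893 at 12 h, then 8293 to 11887, 7599 to 11041 and 7739 to 9601 at 24, 48 and 96 h. It was 12213 and 13764 in mature leaves. The sum of SPCH, MUTE and STOMAGEN, genes of the stomatal lineage, ran from 387 to 479 at 2 h, 379 to 416 after 4 h, 459 to 567 at 12 h, 361 to 450 after 24 h, 375 to 409 at 48 h and 298 to 342 after 96 h, against 34.4 and 49.2 in mature leaves. The trichome marker TRY, 1 of 3 chosen that is named here, read 38.3 to 76.5 at 2 h, 26.2 to 45.4 after 4 h and 39.5 to 51.6 at 12 h. It read 55.6 to 64.8, 50.4 to 75.5 and 69.7 to 98.1 at the 3 later times, and 86.9 and 91.2 in mature leaves. FMA, the 1 guard cell marker of 4 chosen that is named here, had group means of 45.3 to 60.9. No marker chosen for phloem, epidermis, flower or root is named on the array table used here. Nothing in the labels tells whether separate plants were used as replicates, so p-values measure the spread between these samples, which may be technical. In whole leaves, more cells of a type and more RNA per cell cannot be told apart.

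The values that chose the members are given first, as a description. The rise from 24 to 96 h had a median of 0.98 on the log2(signal + 10) scale and ran from 0.70 to 4.80. It was 1 or more in 98 members and 2 or more in 19. The median member signal was 59.7 at 24 h, 92.8 after 48 h and 144 at 96 h. The first step, 24 to 48 h, had a median of 0.47 and the second, 48 to 96 h, of 0.55, and the first was the larger in 87 members. In 189 members every 96 h replicate lay above every 24 h replicate, which held for 7.09% of the 13647 probe sets tested, and nothing is read from this count since the rule used these groups. Only 75 probe sets showed the mirror pattern, a stepwise fall of the same size.

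**Figure D1:**
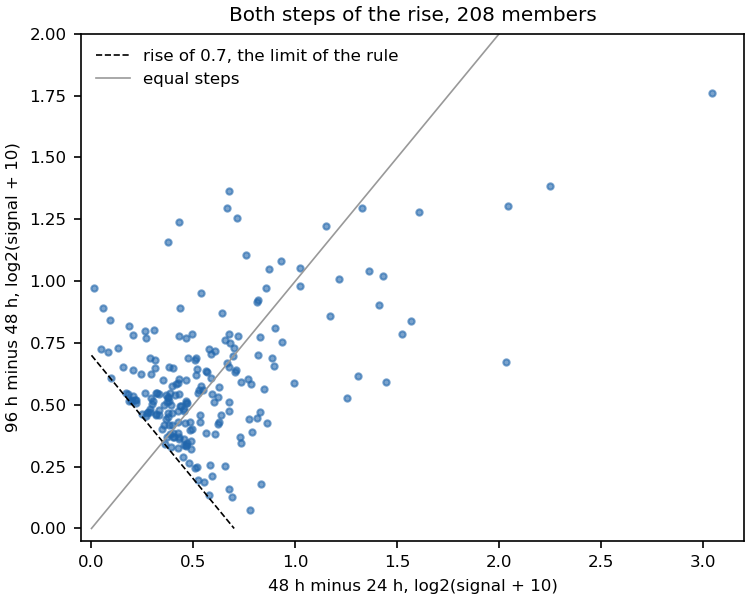
Size of both steps for each of the 208 members, 48 h minus 24 h across and 96 h minus 48 h upward, both as differences of mean log2(signal + 10). The dashed line is the limit of the rule and the grey line marks equal steps; 87 members lie to the right of the grey line.

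At the limit of the rule stood AT4G17670 (rise 0.71), PMEAMT (0.71) and GT72B1 (0.70) on the inside. Just outside were AT2G24600, which went from 46.9 at 24 h to 82.1 after 96 h, AT1G25550, from 69.9 to 118, and AT4G00780, from 69.4 to 115. Their rises were 0.70, 0.69 and 0.69, so the values on both sides of the limit lie close together.

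The largest rises belong to probe sets with no gene name here. Probe set 262832_s_at went from 40.1, 12, 2.08 and 5.88 at 24 h to 666, 814, 339 and 648 after 96 h, and 251625_at from 49.1, 26, 16.1 and 17.9 to 473, 516, 249 and 555. Among named genes AT1G76960 rose most. Its replicates read 2.54, 2.85, 2.3 and 3.1 at 24 h, 25.6, 31, 17.6 and 23.7 after 48 h and 50.0, 73.3, 48.1 and 69.2 at 96 h, and the mature replicates 398 and 277. AT1G13470 followed, with 12.1, 9.27, 7.94 and 7.59 at 24 h, 29.6, 47.3, 38 and 43.6 after 48 h and 104, 86.5, 78.7 and 97.7 at 96 h. In both genes the 3 times did not overlap.

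Over all 6 times, 178 members peaked by their mean at 96 h, 25 peaked after 12 h, 4 at 4 h and 1 after 2 h. The lowest mean fell at 4 h in 69 members, after 24 h in 53, at 2 h in 47 and after 12 h in 39. The rule fixed the later course and kept the lowest mean from falling after 24 h. Means that lie close together can also change order through the spread of replicates. No share over all probe sets stands beside these counts, so they are a description and do not show whether the first day differs between members. The median of log2(signal + 10) over the members, taken in each replicate, was 5.63 to 6.19 at 2 h, 5.67 to 6.11 after 4 h and 6.08 to 6.51 at 12 h. It was 8.33 and 8.19 in the mature replicates.

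**Figure D2:**
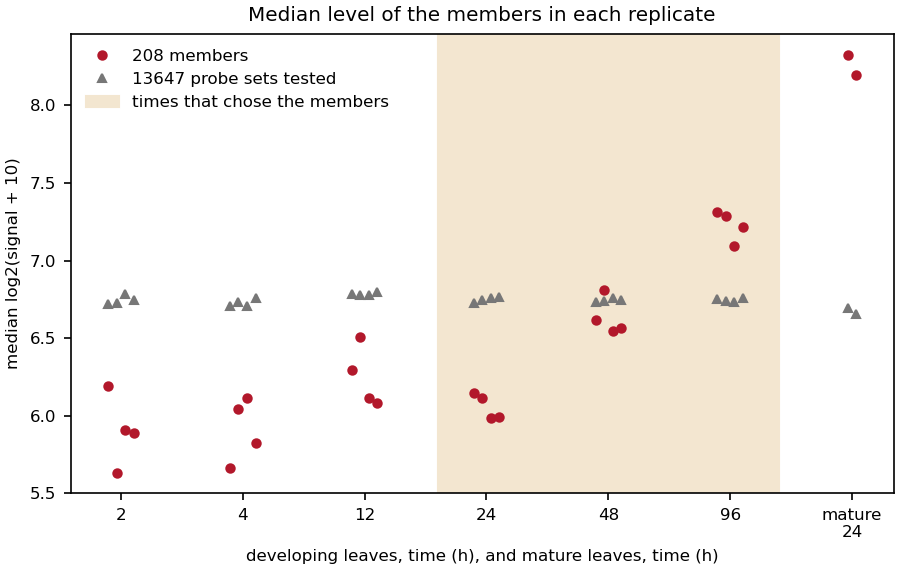
Median log2(signal + 10) in each replicate over the 208 members (circles) and over the 13647 probe sets tested (triangles), by time in developing leaves and in mature leaves. The shaded times chose the members; outside them, the members stand highest in the mature replicates, at 8.33 and 8.19, while the triangles stay between 6.66 and 6.79.

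Groups that the rule did not use allow tests. The 2, 4 and 12 h groups and the mature leaves took no part in choosing the members, and they were compared with limma over the 13647 probe sets with a mean above the 40th percentile, a signal of 27.8. Of the 208 members 193 passed this filter, some only through the later times or the mature leaves, where they are high, so counts over all 208 without the filter are given too. The comparisons with 2 h share the 2 h arrays, and those with 12 h share the 12 h arrays. Signals below are single replicates or means ± SD (n = 4 in developing and 2 in mature leaves), and log2 changes have their SE.

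Between 2 and 4 h few members changed. Of the 193 tested, 4 rose and 6 fell, 5.18% in all, where 2.78% of all probe sets tested were called (1.6% higher and 1.18% lower). Without the filter 1 rose and 4 fell of 208, where 0.853% and 0.58% of all probe sets were called. The median log2 change was -0.08, and it was 0.04 without 2 h replicate 1, so its sign rests on that replicate. Without 2 h replicate 1 the count was 4, as it was without 4 h replicate 4. The balance of the calls also rests on single replicates: 6 rose and 4 fell without 4 h replicate 1, and 0 rose and 7 fell without 4 h replicate 3. Without replicate 1 of every group, a setting chosen after seeing the data, 7 rose and 2 fell, and the median was 0.10. These data therefore give no direction for the members as a group between 2 and 4 h. EXPB1, a beta expansin that loosens cell walls, fell. Its replicates read 85.8, 81.1, 59.4 and 74.7 at 2 h and 43.2, 56, 30.8 and 47.6 after 4 h, with no overlap (log2 change -0.66 ± 0.13, adjusted p = 0.0037). AT5G35970 read 249, 211, 183 and 204 at 2 h and 136, 172, 149 and 126 after 4 h (log2 change -0.51 ± 0.12, adjusted p = 0.013). It did not pass without replicate 1 of every group (adjusted p = 0.11), when leaving out 2 h replicate 1 (0.067) or without 4 h replicate 4 (0.067). AT4G34950, of a family of nodulin-like membrane transporters, read 193, 318, 311 and 273 at 2 h and 414, 475, 588 and 531 after 4 h (log2 change 0.86 ± 0.22, adjusted p = 0.022). It did not pass with no filter (adjusted p = 0.051), when leaving out 2 h replicate 1 (0.1), without 2 h replicate 4 (0.05), when leaving out 4 h replicate 3 (0.084) or without 4 h replicate 4 (0.067).

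Between 2 and 12 h more members rose than fell. Of 193, 81 rose (42% of those tested) and 20 fell (10.4%), against 20.4% higher and 18.4% lower among all probe sets tested. The median log2 change of the members was 0.37, beside 0.03 over all tested. Without 2 h replicate 2, 64 members rose and 23 fell (33.2% and 11.9%), where 17.9% and 16.6% of all probe sets tested were called. Over all 208 without the filter, 78 rose and 20 fell, where 12.4% and 10.8% of 22746 probe sets were called. Against 4 h, 82 rose and 17 fell at 12 h, where 18% of all probe sets tested were higher and 15.4% lower (33.4% in all). Without the filter 76 rose and 13 fell, beside 10.7% and 8.97%. In this pair of times the replicate numbers were taken to pair the samples, from correlated deviations and not from a label. With the replicate as a block 84 rose and 17 fell. The other counts and the values of single genes come from the fit without it.

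RNA quality and cell markers are given for the same groups. The log2 ratio of 3′ to 5′ actin control signal, which grows as RNA or target shortens, was 2.56 ± 0.50 (SD, n = 4) at 2 h, 2.47 ± 0.54 after 4 h and 1.76 ± 0.35 at 12 h. The difference between 12 and 2 h had an exact two-sided permutation p of 0.057, and 0.17 adjusted over 4 such comparisons. The mesophyll sum given above did not overlap between 12 h and either earlier time. Of its genes, LHCB4.2 and PSAN taken alone did not overlap either. RCA overlapped between 2 h (2226 to 3208) and 12 h (2372 to 2771), though not between 4 and 12 h. The part of these measures in the members' changes was not tested.

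The 81 members that rose from 2 to 12 h had median signals of 60.2 at 2 h, 119 after 12 h, 66 at 24 h, 99.7 after 48 h and 167 at 96 h. In 76 of them the 24 h mean lay below the 12 h mean, and in 23 the 12 h mean exceeded even the 96 h mean. The 20 that fell had medians of 86.6 at 2 h, 31.3 after 12 h, 106 at 24 h, 139 after 48 h and 204 at 96 h. These members were grouped by their 12 h values, and the rule favoured probe sets low at 24 h. The counts and the return at 24 h are therefore a description. No share over all probe sets stands beside them, and nothing is read from them. Single members depart from these medians, such as AT4G34950, AT2G26690 and ATSPS4F, whose 24 h levels lie away from those of 2 h and are given below.

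**Figure D3:**
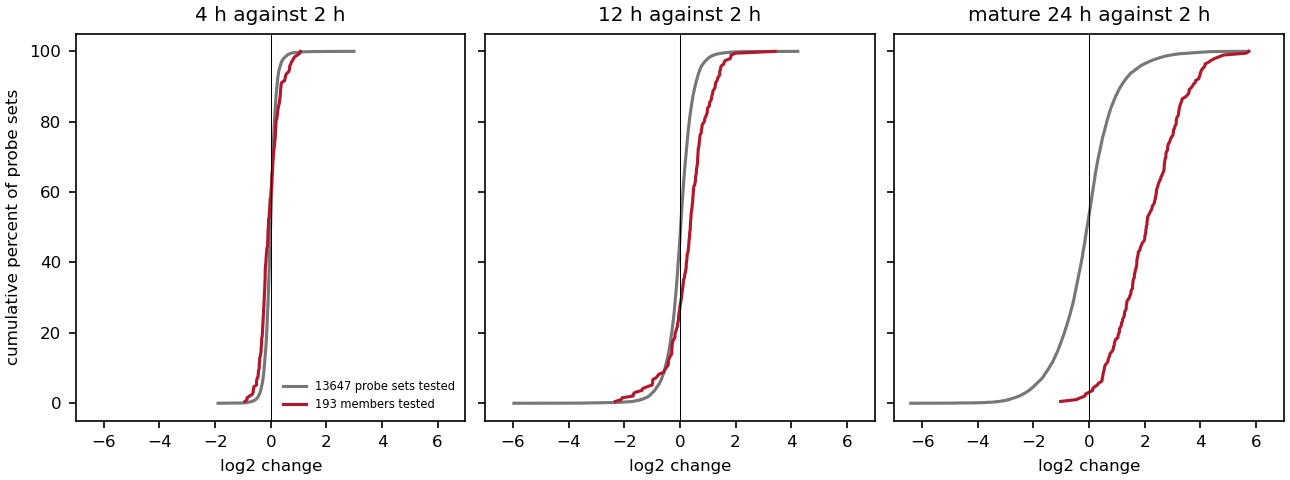
Cumulative percent of probe sets by log2 change for 4 h against 2 h, 12 h against 2 h and mature leaves at 24 h against developing leaves after 2 h. The red curve holds the 193 members tested and the grey curve all 13647 probe sets tested; the median change of the members is -0.08, 0.37 and 2.06 in turn.

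AT1G78020 encodes a protein with the FLZ zinc finger, a family that interacts with the energy sensor kinase SnRK1, and it rose most from 2 to 12 h among named members. Its replicates read 117, 91.8, 103 and 116 at 2 h and 493, 495, 434 and 414 after 12 h (log2 change 2.01 ± 0.13, adjusted p = 1.2e-12). All 4 replicates at 12 h stood above every other developing replicate of this gene, those of 96 h included. AT5G59670, a leucine-rich repeat receptor kinase gene, read 62.4, 37.2, 40.6 and 51.2 at 2 h and 159.6, 191, 111 and 148 after 12 h (log2 change 1.48 ± 0.17, adjusted p = 8.6e-08). AT5G18470, of a family with mannose-binding lectin domains, read 23, 10.3, 18.4 and 21.4 at 2 h and 70.1, 81.7, 81.3 and 41.2 after 12 h (log2 change 1.46 ± 0.21, adjusted p = 3.8e-06). AT5G44580 went from 206 ± 113 to 432 ± 87.6 (log2 change 1.14 ± 0.23, adjusted p = 0.00024). These groups did not overlap in any of the 4 genes.

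The deepest fall at 12 h among named members was that of AT5G35970, which read 40.3, 49.4, 30.0 and 46.9 after 12 h (log2 change -2.11 ± 0.12, adjusted p = 1.2e-13). AT3G44450 read 147, 173, 161 and 198 at 2 h and 33.2, 32.1, 31.9 and 32.7 after 12 h (log2 change -2.07 ± 0.12, adjusted p = 2.1e-13). The 4 values at 12 h lie close together, below every other developing replicate of the gene. EXPB1 read 20.7, 11.9, 14 and 20.3 at 12 h and 111, 131, 113 and 132 after 24 h, and the first of these groups was below 2 h (log2 change -1.68 ± 0.13, adjusted p = 1.4e-10). AT1G73600, whose enzyme family methylates phosphoethanolamine on the way to phosphocholine, read 240.3, 169.7, 155 and 251 at 2 h and 64.7, 80.0, 76.6 and 69.6 after 12 h (log2 change -1.35 ± 0.16, adjusted p = 1.7e-07). AT3G56080, of a methyltransferase family, went from 27.5 ± 8.5 to 11.2 ± 2.83 (log2 change -0.80 ± 0.16, adjusted p = 0.00016). In all 5 genes the 12 h replicates lay below every 2 h replicate.

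**Figure D4:**
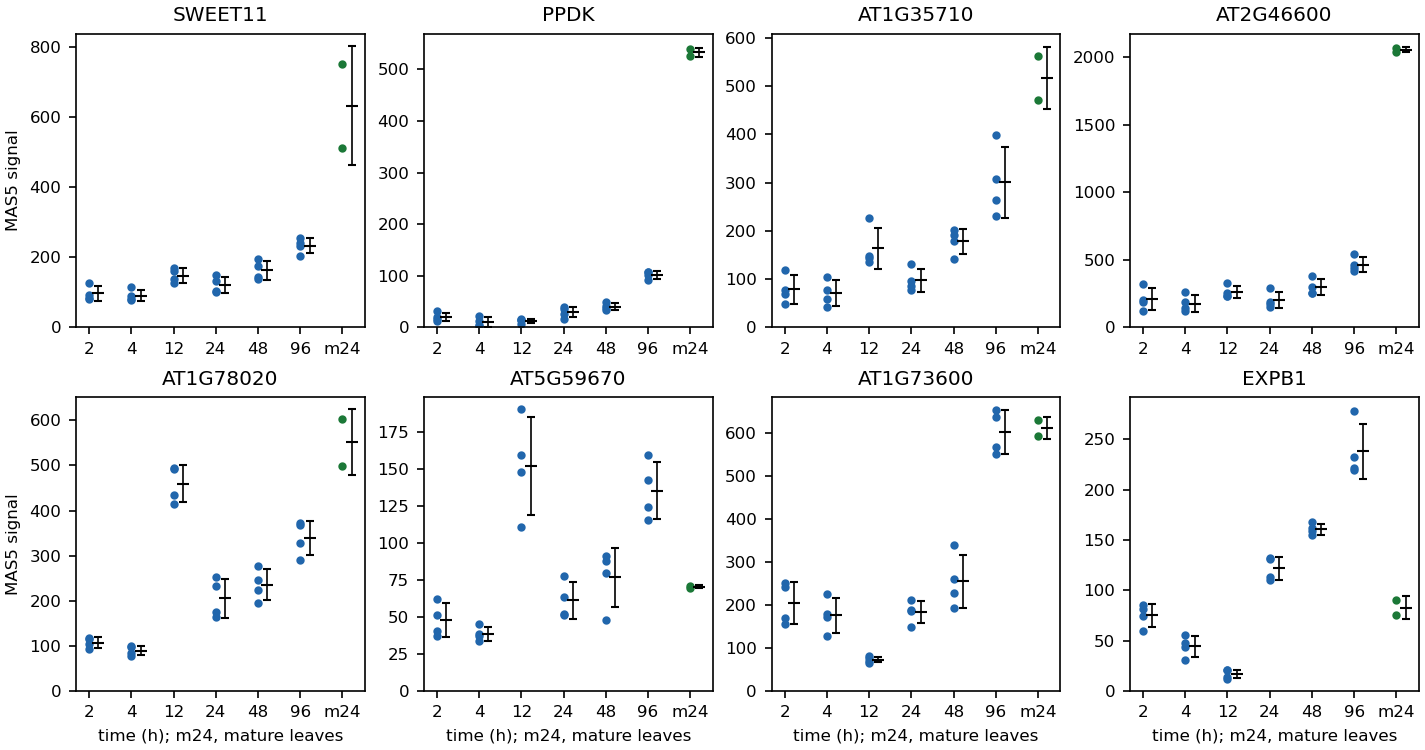
MAS5 signal of 8 members in every replicate (points), with mean and SD beside them, by time in developing leaves (blue) and in mature leaves at 24 h (green, m24). These 8 were picked after their values were seen; AT1G78020 and AT5G59670 stand high at 12 h, AT1G73600 and EXPB1 low, and PPDK and AT2G46600 stand highest in mature leaves.

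Mature leaves at 24 h stood far above developing leaves after 2 h for most members. Of 193 tested, 178 were higher (92.2%) and 1 lower (0.518%), where 28.7% of all probe sets tested were higher and 36.8% lower. The median log2 change was 2.06, beside -0.07 over all tested. Without the filter 190 of 208 were higher and 1 lower, where 22.6% and 23.8% of all probe sets were called. These groups differ in leaf age and in time of treatment, and the contrast does not separate them. The stomatal lineage sum was lower in mature leaves and the mesophyll sum and TRY were higher, as given above, with no overlap with 2 h in any of the 3. The actin ratio was 1.67 ± 0.74 (SD, n = 2) in mature leaves with an exact permutation p of 0.27 against 2 h. The part of cell composition in this difference was not tested.

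The developing leaves at 24 and 96 h entered the rule, so their relation to mature leaves is described only. Both mature replicates exceeded every 24 h developing replicate in 187 members and every 96 h replicate in 142. Among all probe sets tested these shares were 30.1% and 29.5%. The mature mean was above the 96 h mean in 164 members and below it in 44. The median member signal was 288 in mature leaves.

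The largest named differences between mature leaves at 24 h and developing leaves after 2 h were those of MT1C, AT1G67865, AT1G64370, AT1G23130 and PPDK. MT1C, a metallothionein gene whose product binds metals, read 16.2, 9.76, 4.01 and 20.0 at 2 h and 676 and 549 in mature leaves (log2 change 4.84 ± 0.49, adjusted p = 1.8e-09). AT1G67865 read 99.4, 56.6, 58 and 50.1 at 2 h and 1481 and 1871 in mature leaves (log2 change 4.50 ± 0.30, adjusted p = 3.4e-13). At 96 h its developing replicates still read 158, 100.4, 123 and 77.7, so the climb covered a small part of the distance to the mature level. AT1G64370 read 82.2, 21.2, 18.8 and 15.2 at 2 h and 684 and 899 in mature leaves (log2 change 4.39 ± 0.40, adjusted p = 1.6e-10). AT1G23130, of the family of major latex proteins and Bet v I, went from 108 ± 54.5 to 2170.2 ± 494 (log2 change 4.29 ± 0.34, adjusted p = 1.6e-11). In each of these genes the groups did not overlap. MT1C, AT1G64370 and PPDK passed the filter partly through groups where they are high, the mature leaves of this contrast included. They fell under it in some settings and were tested in 19 alternatives, where AT1G67865 and AT1G23130 were tested in 21. Each of these genes kept its call in every setting that tested it, no filter included.

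Not all members were high in mature leaves. Among the 14 tested members that passed in neither direction, the named ones are EXPB1, AT3G44450, AT4G34950, TET2, DRT100 and HOS3-1. EXPB1 read 220.0, 221, 279 and 232 at 96 h and 90.7 and 75 in mature leaves, close to its 2 h level (log2 change 0.13 ± 0.16, adjusted p = 0.51). HOS3-1, of a family that elongates fatty acids, read 30.6 ± 11.7 at 24 h, 54.5 ± 4.28 after 96 h and 34.3 and 14.8 in mature leaves. The 1 member that was lower in mature leaves, 258920_at, has no gene name here and read 327, 216, 219 and 252 at 2 h and 127 and 110.2 in mature leaves (log2 change -1.02 ± 0.16, adjusted p = 3.9e-06).

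Named members were put into 10 groups by the known role of their gene or family, after their values were seen. The groups hold 47 members, of which 41 were tested. Among all probe sets tested, 20.4% were higher at 12 h than after 2 h and 28.7% higher in mature leaves. Among the members tested these shares were 42% and 92.2%, and the role groups are parts of the members. Some of their genes were also named for large changes in these same tests. The counts are therefore a description, and no group is read as set apart from the other members.

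Receptors and kinases form the largest group, with 9 members. Of 8 tested, 5 rose from 2 to 12 h and 0 fell, and 8 were higher in mature leaves at 24 h than after 2 h. AT1G35710, a leucine-rich repeat receptor kinase gene, read 119, 49, 68.5 and 78.5 at 2 h, 148, 227, 136 and 145 after 12 h, 131, 97, 77.8 and 85.5 at 24 h and 263, 308, 231 and 399 after 96 h. Its 12 h values exceeded every 2 h value (log2 change 1.00 ± 0.22, adjusted p = 0.00073), and its mature replicates, 562 and 472, exceeded all developing ones. AT4G08850, of the same kinase class, went from 155 ± 36.1 to 255 ± 31 (log2 change 0.71 ± 0.14, adjusted p = 0.00014) and stood at 312 ± 42 at 96 h and 288 ± 16.2 in mature leaves. For AT5G59670, described above, the mature replicates of 71.1 and 69.7 lay below all 96 h replicates. It was called higher in mature leaves than at 2 h (log2 change 0.50 ± 0.21, adjusted p = 0.038), and it did not pass with a pseudocount 50 (adjusted p = 0.059), with no filter (0.062), without 2 h replicate 2 (0.1), when leaving out 2 h replicate 3 (0.086), without mature replicate 1 (0.14) or when leaving out mature replicate 2 (0.12).

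Further members of this group differ in when they are high. AT4G27300, with an S-locus lectin type kinase, went from 36.9 ± 11.7 at 2 h to 58.5 ± 13.4 after 12 h, 95.6 ± 24.3 at 96 h and 228 ± 7.75 in mature leaves (log2 change 2.38 ± 0.24, adjusted p = 1.4e-09 for mature against 2 h). AT1G66880, a kinase gene, read 21.9, 31.1, 26.8 and 28.6 at 24 h, 81.6, 89.3, 83.6 and 102 after 96 h and 154 and 150.1 in mature leaves. It had passed no test within the first 12 h. AT3G04210 and AT1G72940 encode TIR-type proteins with a nucleotide-binding domain, a class of intracellular immune receptors. AT1G72940 read 54.9, 60.4, 59.1 and 80.2 at 96 h and 346 and 413 in mature leaves, so the mature level was far above the end of the climb (log2 change 2.97 ± 0.26, adjusted p = 8.3e-11 for mature against 2 h). AT3G04210 went from 78.4 ± 16.1 at 24 h to 164 ± 16.7 after 96 h and 409 ± 31.6 in mature leaves. Its call at 12 h against 2 h was lost in some settings: it did not pass with the compared groups alone in the fit (adjusted p = 0.056), when leaving out 2 h replicate 2 (0.13), without 2 h replicate 3 (0.051) or when leaving out 12 h replicate 2 (0.079). The same comparison counts AT4G27300 among the 5, and it did not pass without 2 h replicate 2 (adjusted p = 0.092), when leaving out 2 h replicate 3 (0.091), without 12 h replicate 1 (0.098) or when leaving out 12 h replicate 2 (0.057).

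The glutamate receptor-like channels GLR2.7 and GLR1.4 pass calcium in response to amino acids. GLR2.7 was low on the first day, with 4.82, 3.86, 3.81 and 3.57 at 2 h and 3.96, 4.04, 4.19 and 3.33 after 12 h, and was not tested. It read 14.3, 19.8, 9.58 and 5.23 at 24 h, 29.5, 37, 28.1 and 26.7 after 48 h, 50.8, 69, 45 and 51.1 at 96 h and 118 and 102 in mature leaves. Every 48 h replicate was above every 24 h replicate, and every 96 h replicate above every 48 h one. GLR1.4 moved less, from 42 ± 6.28 at 24 h to 81.4 ± 5.05 after 96 h and 85.8 ± 22 in mature leaves. It was higher in mature leaves than at 2 h (log2 change 0.74 ± 0.17, adjusted p = 0.00052), and it did not pass without replicate 1 of every group (adjusted p = 0.085).

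Calcium-binding proteins and 1 calmodulin-binding protein make a group of 5. All were tested and all were higher in mature leaves than at 2 h, while 2 rose from 2 to 12 h. AT2G46600, an EF-hand protein gene, read 322, 125, 185 and 203 at 2 h, 289.6, 189, 176 and 153 after 24 h, 542, 465, 418 and 437 at 96 h and 2067 and 2039 in mature leaves (log2 change 3.31 ± 0.27, adjusted p = 2e-11 for mature against 2 h). Both mature replicates lie far above the highest developing replicate. AT5G39670, also EF-hand, went from 22.2 ± 4.49 at 24 h to 63.5 ± 6.18 after 96 h and 242 ± 34.8 in mature leaves (log2 change 3.02 ± 0.21, adjusted p = 1.4e-12). AT3G47480, of the same class, read 16.4, 16, 17.5 and 9.89 at 24 h, 54.5, 42.2, 30.6 and 7.27 after 48 h and 65.6, 52.2, 47.1 and 46.3 at 96 h, with 48 h replicate 4 below every 24 h replicate. AT5G39670 and AT3G47480 passed the filter partly through groups where they are high, the mature leaves included. For mature leaves against 2 h they were tested in 19 alternatives, where AT2G46600 was tested in 21. AT2G26190, with a calmodulin-binding domain, rose from 164 ± 30.4 at 2 h to 250.2 ± 16.7 after 12 h (log2 change 0.59 ± 0.11, adjusted p = 0.00013) and was at 119.7 ± 11.8 at 24 h and 205 ± 21.6 after 96 h, below its 12 h mean. AT3G25600 went from 61.3 ± 14.5 at 24 h to 108 ± 14.2 after 96 h and 350.1 ± 23.6 in mature leaves (log2 change 2.05 ± 0.21, adjusted p = 1.6e-09). Its call at 12 h against 2 h is 1 of the 2 in this group, and it did not pass without 2 h replicate 2 (adjusted p = 0.074). The other call is that of AT2G26190.

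Genes of sugar, glycoside and energy metabolism number 6, and all 5 tested were higher in mature leaves than at 2 h. ATSPS4F encodes a sucrose phosphate synthase, which makes the precursor of sucrose. Its replicates read 38.8, 20.0, 17.8 and 15 at 2 h, 15.3, 19.3, 19.9 and 15 after 4 h and 62.7, 76.8, 41.2 and 50.8 at 12 h, a rise with no overlap (log2 change 1.07 ± 0.19, adjusted p = 7.4e-05). From there it stayed at 59.1 ± 17.4 at 24 h, reached 122 ± 30.6 after 96 h and stood at 207 ± 38.8 in mature leaves (log2 change 2.76 ± 0.24, adjusted p = 6.9e-11 against 2 h). Unlike most members that rose by 12 h, its 24 h mean was not below its 12 h mean. PPDK, pyruvate orthophosphate dikinase, regenerates phosphoenolpyruvate from pyruvate. It read 31.9, 13.5, 21.1 and 17.2 at 2 h, 13.8, 15.6, 14.7 and 7.61 after 12 h, 40.1, 35.7, 16.7 and 26.8 at 24 h, 108, 102, 91.6 and 108 after 96 h and 527 and 539.6 in mature leaves (log2 change 4.17 ± 0.27, adjusted p = 2.2e-13 for mature against 2 h). Both mature replicates were far above every 96 h replicate.

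NDB2, an external NADH dehydrogenase of the mitochondrial alternative pathway, read 45.8, 40.1, 52.5 and 45.4 at 2 h, 72.3, 53.6, 49.3 and 69.2 after 24 h, 84.2, 108, 75.3 and 108 at 48 h and 173, 155, 121 and 124 after 96 h. Its mature replicates of 121 and 110.0 lay below every 96 h replicate and above every 2 h replicate (log2 change 1.17 ± 0.19, adjusted p = 3.4e-06). The glycosyltransferase genes UGT87A2 and GT72B1 attach sugars to small molecules. UGT87A2 had a signal of 51.3 ± 13.2 at 2 h. It went from 66 ± 5.81 at 24 h through 99.7 ± 17.1 after 48 h to 159.9 ± 6 at 96 h and 384 ± 43.9 in mature leaves (adjusted p = 1.3e-14 for mature against 2 h). It is 1 of the 2 genes of the group called higher at 12 h than after 2 h, and there it did not pass without 2 h replicate 4 (adjusted p = 0.07). GT72B1 went from 80.0 ± 14.2 at 2 h to 139 ± 32.9 after 24 h, 231 ± 49.1 at 96 h and 260.3 ± 30.2 in mature leaves (log2 change 1.60 ± 0.18, adjusted p = 1.6e-08). SAL2, whose product resembles the phosphatase SAL1, was not tested. It read 12.4, 12.5, 7.15 and 12.3 at 24 h, 36.8, 33.3, 18.5 and 21.7 after 48 h and 64.6, 66, 44.5 and 65.4 at 96 h.

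Transporters number 6, of which 5 were tested, and 4 of these were higher in mature leaves than at 2 h. SWEET11 exports sucrose from leaf cells ahead of phloem loading. Its replicates read 128, 93.9, 81.3 and 85.6 at 2 h, 138, 170.1, 160.0 and 126 after 12 h, 149.7, 133, 102 and 105 at 24 h, 196, 137, 177 and 144 after 48 h and 241, 233, 255 and 204 at 96 h. The 12 h group was above 2 h (log2 change 0.57 ± 0.15, adjusted p = 0.0033) with replicates that overlap, and the mature replicates of 514 and 753 were above every developing one (log2 change 2.58 ± 0.18, adjusted p = 1.8e-12 against 2 h). AT2G26690, which the gene table also lists as NPF6.2 of the nitrate and peptide transporter family, read 131, 98.1, 88.4 and 72.5 at 2 h and 61.6, 44.4, 47.3 and 41.7 after 12 h (log2 change -0.86 ± 0.14, adjusted p = 1.7e-05). It read 266, 182, 192 and 209 at 24 h and 389, 349, 398 and 369 after 96 h, so every replicate up to 12 h stood below every replicate from 24 h on.

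AT1G68600, of the aluminium-activated malate transporter family, read 69.3, 92.7, 43.7 and 42.6 at 12 h, 24.6, 24.7, 41.1 and 23.1 after 48 h, 70.4, 59.2, 57.8 and 45.5 at 96 h and 319.6 and 246 in mature leaves (log2 change 2.76 ± 0.24, adjusted p = 1e-10 for mature against 2 h). Nearly all of its climb came after 48 h. AT4G34950 read 329.7, 462, 529 and 411 at 12 h, 46.6, 65.1, 70.7 and 101 after 24 h and 141, 175, 229 and 149.9 at 96 h, so that the climb from 24 h only brought it back toward its first-day level. AT2G39210, of the same transporter family, went from 121 ± 7.84 at 24 h to 234 ± 18.8 after 96 h. AT1G79520, a cation efflux family gene, was not tested and read 16.9, 2.04, 12.4 and 5.7 at 2 h, 22.5, 19.4, 24.5 and 45.1 after 24 h and 96.6, 51.4, 69.2 and 66.7 at 96 h.

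The cell wall and apoplast group has 5 members, of which 4 were higher in mature leaves than at 2 h. EXPB1 is described above. AT3G07010, of the pectate lyase family, which cuts pectin, read 113, 67.5, 69.9 and 64.6 at 2 h, 172, 156, 133 and 146 after 12 h, 80.8, 59.2, 70.2 and 69.1 at 24 h and 131, 142, 124 and 118 after 96 h, with no overlap between 2 and 12 h (log2 change 0.89 ± 0.14, adjusted p = 9.4e-06). AT4G34480, a beta-glucanase family gene, went from 126 ± 16 at 24 h to 226 ± 28.8 after 96 h and 300.4 ± 12.1 in mature leaves (log2 change 1.27 ± 0.16, adjusted p = 6.9e-08 against 2 h). For 12 h against 2 h, where it was called higher, it did not pass without 2 h replicate 2 (adjusted p = 0.064). ATPMEPCRB, a pectin methylesterase gene, read 70.8, 67.4, 72.6 and 54.9 at 24 h and 105, 129, 109 and 119 after 96 h. Its mature replicates were far apart, at 112 and 45.3, and the difference from 2 h rests on the first of them: the log2 change was 0.54, and it was -0.03 (adjusted p = 0.9) without mature replicate 1. AT5G48540, a secreted protein gene with cysteine-rich repeats, went from 45.6 ± 15.3 at 24 h to 98 ± 6.43 after 96 h and 229.5 ± 26.4 in mature leaves (log2 change 2.42 ± 0.28, adjusted p = 2.3e-08 against 2 h).

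The phosphocholine and lipid group holds AT1G73600, PMEAMT and HOS3-1. AT1G73600 read 187, 211, 149 and 188 at 24 h, 192, 227, 338 and 259.8 after 48 h and 653, 567, 637 and 551 at 96 h, and the mature replicates of 593 and 629 lay within the 96 h range. PMEAMT, of the same methyltransferase family, passed no test of the first 12 h, with 201 ± 36 at 2 h and 187 ± 8.27 after 12 h, and reached 289 ± 54.3 at 96 h and 563 ± 68.8 in mature leaves (log2 change 1.45 ± 0.21, adjusted p = 6.2e-07 against 2 h). At 12 h AT1G73600 was called lower than at 2 h and PMEAMT was not called (log2 change -0.09 ± 0.17). The difference between the genes was not tested.

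Of 4 members with AAA ATPase or ankyrin domains, 2 were tested, and both were higher than at 2 h after 12 h and in mature leaves. AT3G28540, an AAA ATPase gene, read 14.2, 17.7, 8.37 and 10.3 at 24 h, 28.5, 36.1, 12.8 and 30.1 after 48 h, 102, 79, 67.3 and 83.1 at 96 h and 252 and 245 in mature leaves. AT1G10340, an ankyrin repeat gene, read 12.5, 3.7, 13.1 and 4.56 at 24 h, 66.4, 70.4, 50.6 and 63.1 after 96 h and 324 and 204 in mature leaves. Both were low on the first day and neither was tested. AT5G17760, another AAA ATPase gene, read 18.1, 15.8, 29.5 and 39.3 at 2 h, 58.4, 81.3, 93.2 and 106 after 12 h, 15.7, 39.6, 42.7 and 49.9 at 48 h and 100.5, 57.6, 49.1 and 97.7 after 96 h (log2 change 1.43 ± 0.29, adjusted p = 0.0003 for 12 against 2 h). AT1G43910 went from 34.7 ± 9.33 at 24 h to 63.6 ± 5.56 after 96 h and 44.9 ± 2.48 in mature leaves. For 12 h against 2 h it did not pass with the compared groups alone in the fit (adjusted p = 0.051), when leaving out 2 h replicate 2 (0.12) or without 2 h replicate 3 (0.053). For mature leaves against 2 h it did not pass with the compared groups alone in the fit (adjusted p = 0.058), when leaving out 2 h replicate 2 (0.072), without mature replicate 1 (0.094) or when leaving out mature replicate 2 (0.056). AT5G17760 was also called higher in mature leaves, where it did not pass without 2 h replicate 1 (adjusted p = 0.051), when leaving out 2 h replicate 2 (0.062), without mature replicate 1 (0.07) or when leaving out mature replicate 2 (0.11).

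Metal binding is represented by MT1C and AT5G52750, a gene with a heavy-metal-associated domain. MT1C read 2.76, 2.71, 2.81 and 18.4 at 12 h, 35.5, 37.2, 74.1 and 32.5 after 24 h, 21.9, 50.9, 118 and 91.5 at 48 h and 165, 76.9, 152 and 79.1 after 96 h, with wide spread at the last 2 times. AT5G52750 read 30.3, 30.3, 22 and 27.3 at 24 h, 58, 80.4, 68.4 and 78.4 after 96 h and 389 and 396 in mature leaves (log2 change 3.47 ± 0.22, adjusted p = 1.3e-13 against 2 h). It lies next to AT5G52760 on chromosome 5, 1 of the 12 left out by name. Among the 89 members with a locus matched in TAIR10.1, AT1G67870 and AT1G67865 on chromosome 1 were the 1 adjacent pair, and the other members were not placed.

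Among membrane proteins, TET3 and TET2 encode tetraspanins, which organise membrane domains. TET3 read 36, 27.5, 36.9 and 38.7 at 24 h, 78.4, 68.9, 82.8 and 74.9 after 96 h and 307 and 294 in mature leaves (log2 change 2.76 ± 0.20, adjusted p = 2.4e-12 against 2 h). TET2 read 9.13, 31.6, 33.9 and 42.2 at 24 h, 58.1, 48, 53.2 and 47.9 after 96 h and 43.2 and 35.2 in mature leaves (log2 change 0.56 ± 0.28, adjusted p = 0.082), and its mature values lay below every 96 h value. AT1G52870, of the Mpv17 and PMP22 family of organelle membrane proteins, had the highest mature mean of all members, with 2124 and 2464. It rose from 262 ± 86.4 at 2 h to 515 ± 122 after 12 h (log2 change 0.98 ± 0.18, adjusted p = 8.5e-05) and read 336 ± 47.3 at 24 h and 618 ± 74.8 after 96 h. AT4G00700, a C2 domain gene, was not tested and went from 16.6 ± 5.08 at 24 h to 52.5 ± 10.0 after 96 h.

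AT4G17670, a relative of AT1G78020 with the same FLZ domain, also rose from 2 to 12 h, with replicates of 56.3, 33.3, 48.7 and 49.7 and 70.5, 117, 79.4 and 80.9 (log2 change 0.76 ± 0.13, adjusted p = 3.7e-05). In mature leaves AT1G78020 read 499.6 and 603, above every 96 h replicate, and AT4G17670 read 69.1 and 70.5, below every 96 h replicate. AT4G17670 was called higher in mature leaves than at 2 h, and it did not pass without mature replicate 2 (adjusted p = 0.051). AT3G44450, known as an inhibitor of blue light photoreceptors of the cryptochrome type, had returned to 116, 163, 123 and 152 at 24 h and read 239.9, 222, 290.4 and 192 after 96 h and 202 and 169.9 in mature leaves.

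Other named members fell in no role group. AT3G52800, an A20 and AN1 zinc finger protein gene, read 65.4, 114, 140.1 and 95.6 at 12 h and 29.9, 23.1, 47.8 and 19.3 after 4 h, a rise with no overlap (log2 change 1.51 ± 0.27, adjusted p = 8.5e-05 for 12 against 4 h), and 549 and 592 in mature leaves. The serine carboxypeptidase-like gene scpl46 went from 42.1 ± 13.7 at 4 h to 117 ± 26.8 after 12 h (log2 change 1.30 ± 0.18, adjusted p = 2.1e-06), and then to 216 ± 10.2 at 96 h. AT5G35735, of the cytochrome b561 class, went from 37.6 ± 11.3 at 24 h to 109 ± 25.7 after 96 h and 378 ± 88.8 in mature leaves (log2 change 3.03 ± 0.31, adjusted p = 2.3e-09 against 2 h). AT2G32160 and AT1G72060 stood at 335 ± 42 and 137 ± 20.3 at 96 h and at 828 ± 21.5 and 358 ± 70.6 in mature leaves. AT5G22580, AT1G19960 and AT3G60540 had means of 809 ± 63.3, 491 ± 32.7 and 166 ± 38.2 at 96 h, and AT3G60540, a subunit of the protein translocation channel of the endoplasmic reticulum, was not above that in mature leaves, at 137 ± 9.08. AT1G67330 was not tested and read 3.34, 3.63, 2.24 and 2.19 at 12 h, 12.7, 28.9, 16.4 and 9.29 after 24 h and 51.6, 52.8, 55.8 and 47.5 at 96 h.

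**Figure D5:**
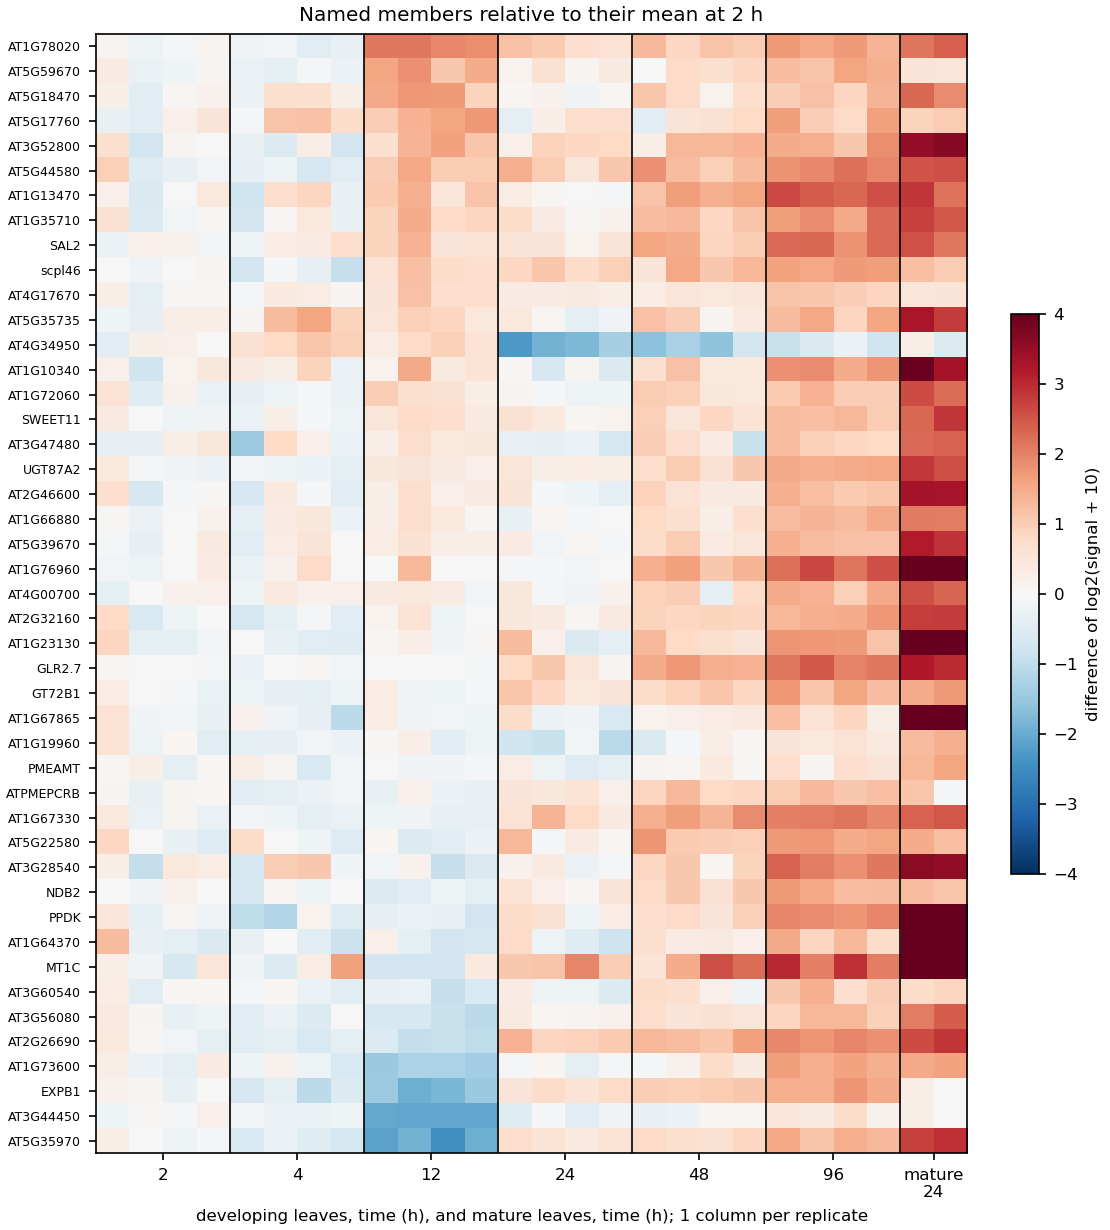
Difference of log2(signal + 10) from the gene's own mean at 2 h for the 45 members named by rule, 1 column per replicate, ordered by the change from 2 to 12 h. Rows at the top (AT1G78020, AT5G59670) are red at 12 h and rows at the bottom (AT5G35970, AT3G44450) blue, and most rows are darkest red in mature leaves; the colour scale ends at 4 and darker differences are cut there.

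Gene lists drawn up for defence, hormone, growth and metabolic pathways held 7 members among their 253 probe sets (2.77%), where 90 of the 13513 probe sets with 1 gene are members (0.666%). The lists were chosen with results of these data known, so nothing is read from this difference. Of 27 lists, 25 had a probe set named here and 5 held a member: UDP-glycosyltransferases and cell wall with 2 each, and redox, nitrogen and amino acids, and sugar and starch with 1 each. In 4 lists 1 probe set was left out by name, and 3 of these, cytochrome P450, ubiquitin ligases and flavonoids, hold no member. The probe set left out of the flavonoid list is that of CHI. It entered that list by a symbol that more than 1 gene carries, so it is not taken as a flavonoid gene. Of 51 named UDP-glycosyltransferase probe sets 22 were tested, and their median rise from 24 to 96 h was 0.05. Of 34 named cell wall probe sets 14 were tested with a median of 0.18, and of 22 for sugar and starch 12 were tested with a median of 0.16. Over all probe sets tested the median was -0.02. The WRKY transcription factors had 7 named probe sets and 0 members, and 5 were tested with a median of 0.11. From 2 to 12 h 3 of these 5 rose and 0 fell. The 116 members without a name were not placed in any list. Named members were spread over the chromosomes much as the named probe sets tested were, from 12.4% on chromosome 2 to 28.1% on chromosome 1, where the tested share was 14.7% and 26%.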

How the data were processed

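RNA of developing and mature leaves was measured on 28 ATH1 arrays, of which 27 were used as 26 replicates. The authors deposited MAS5 signals, a linear intensity, and every array had a trimmed mean of 100 after 2% was trimmed. MAS5 is named per the labels, and no version is stated there. For 24 h replicate 1, which names 2 arrays, the mean of their log2 values was used, and 1 array at 4 h whose note differs from the others entered no group. That array is titled 4 h replicate 1, as is an array that was used, and no alternative setting included it.

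From the deposited intensity, log2(signal + 10) was computed for each probe set. All 7 groups were fitted in 1 limma model (version 3.58.1, R 4.3.3, lmFit and eBayes with trend, 19 residual degrees of freedom). The fit held the 13647 probe sets with a mean above the 40th percentile, and p-values are two-sided and adjusted over all of them by Benjamini-Hochberg at 0.05. Tests were made only for 4 h against 2 h, 12 h against 2 h, 12 h against 4 h and mature 24 h against developing 2 h, whose groups did not choose the members. The fit was tested on simulated data. Errors are SD for signals and SE for log2 changes. On the log2(signal + 10) scale a change of a low probe set is understated. The number of arrays limits the precision.

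The members and gene lists were chosen with earlier results of these data known. The 45 genes named by rule are the 25 largest rises among probe sets with 1 gene, the 5 largest changes without overlap in each direction of each test, members of a list, and those at the limit of the rule. A further 20 genes were named for their role, and role groups and plotted genes were chosen after values were seen. Gene names come from the platform's gene table, in which 13513 probe sets have 1 gene, 503 several and 8730 none listed, controls aside, and 89 members were matched in TAIR10.1. Families of genes known only by a locus code are background knowledge, not from the files. A planned motif search was not run, since no promoter sequence was used here.

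For 12 h against 4 h, deviations of samples with the same replicate number correlated in every pair (0.39, 0.15, 0.15 and 0.33), so the numbers were taken to pair samples there. In each other comparison at least 1 pair correlated below 0, while 1 pair of 12 h against 2 h reached 0.37, and there the numbers were not so taken. Alternatives covered the pseudocount, filter, normalization, replicate block, groups fitted, array weights, trend, the doubled array, the rule's limits and each replicate left out in turn.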

Additional observations from a re-analysis of the deposited data

Results flagged for a closer look

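The 65 genes named have 390 groups of 4 replicates, and the median level of the members has 6 more. In 29 of these 396 groups (7.32%), all of them groups of a named gene, 1 replicate stood apart from the other 3 by Dixon's 95% criterion. Chance gives about 1 in 20, but the genes share arrays, so the flags are not independent. At 2 h these were AT3G28540 with 1.18 in replicate 2, AT1G64370 with 82.2 in replicate 1 and ATPMEPCRB with 35.6 in replicate 2. Others at 2 h were AT3G07010 with 113 in replicate 1. At 4 h these were AT2G26190 with 159 in replicate 4 and AT5G52750 with 37.8 in replicate 4. At 12 h these were AT1G76960 with 23 in replicate 2, AT1G35710 with 227 in replicate 2 and MT1C with 18.4 in replicate 4. Others at 12 h were AT5G39670 with 36.7 in replicate 2, AT5G44580 with 564 in replicate 2 and AT1G67865 with 80.1 in replicate 1. Others at 12 h were ATPMEPCRB with 54.5 in replicate 2, AT3G04210 with 219 in replicate 2 and AT1G43910 with 32.4 in replicate 3. At 24 h these were SAL2 with 7.15 in replicate 3, MT1C with 74.1 in replicate 3 and AT3G52800 with 45.9 in replicate 1. Others at 24 h were AT5G48540 with 68.4 in replicate 1. At 48 h these were AT4G00700 with 8.56 in replicate 3, AT5G22580 with 887 in replicate 1 and AT3G52800 with 47.8 in replicate 1. Others at 48 h were ATPMEPCRB with 130 in replicate 2, AT1G68600 with 41.1 in replicate 3 and ATSPS4F with 64.9 in replicate 4. Others at 48 h were AT3G07010 with 115 in replicate 1 and TET2 with 30.7 in replicate 1. At 96 h these were SAL2 with 44.5 in replicate 3 and AT1G23130 with 232 in replicate 4. The 12 h group held 9 of these and the 48 h group 8. At 12 h the flagged value was a high replicate 2 in AT1G76960, AT1G35710, AT5G39670, AT5G44580, ATPMEPCRB and AT3G04210, all from the same array.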

How the results depend on the processing

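The number of members called from 2 to 12 h (101) ran from 87 to 111 with 1 replicate left out and from 74 to 115 under the other settings. From 4 to 12 h (99) it ran from 83 to 101 and from 73 to 103. For mature 24 h against developing 2 h (179) it ran from 168 to 178 with 1 replicate left out, and it was 110 of 116 tested with a filter at the 60th percentile, which tests fewer members. From 2 to 4 h (10) it ran from 4 to 12 with 1 replicate left out, and it was 5 with no filter and 6 with only the compared groups fitted, and whether more rose or fell turned with the replicate left out. The cause was not tested. With a replicate block the counts were 11 from 2 to 4 h, 107 from 2 to 12 h, 101 from 4 to 12 h and 180 for mature leaves, and the block ended no call of a named gene. The rule took 220 probe sets, 209 to 257 with 1 replicate left out, 117 with a pseudocount of 50 and 108 with a minimum rise of 1. Chosen after seeing the data, a filter on the mean of 2, 4 and 12 h gave 9, 97, 91 and 158 calls in the same order, and leaving out replicate 1 of every group gave 9, 112, 89 and 176. Of 116 calls of named genes, 23 were lost under at least 1 setting. ATPMEPCRB changed sign for mature leaves against 2 h, from 0.54 to -0.034 without mature replicate 1 (1.11 without mature replicate 2) and to -0.000721 without replicate 1 of every group. Signals near the background of the array limit what can be said of the 15 members that were not tested.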

Other observations

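The array at 4 h that entered no group had a median log2(signal + 10) of 5.76 over the 208 members, where the 4 h replicates used had 5.67, 6.04, 6.11 and 5.82.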
